A study of Mus musculus with 8 samples.

Results

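The complement system was examined here through 9 genes, C1qa, C1qb, C1qc, C2, C3, C4b, Cfb, C3ar1 and C5ar1, chosen by gene symbol from the 55291 genes counted in lumbar spinal cord of SOD1G93A mice. All 9 were found in the table and all 9 passed the filter on low counts. The list holds the recognition chains of the classical pathway, the proteins that build the C3-cleaving enzymes, and the receptors for the released fragments. Members are taken by symbol alone, and the rule uses no measured value.

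The comparison was between 4 male mice with Ager, the gene encoding RAGE, deleted from microglia (SOD1G93A Ager fl/fl Cx3cr1 Cre/+, E1776, E5231, E5248 and E5568), and 4 male Cre-expressing controls (SOD1G93A Ager+/+ Cx3cr1 Cre/+, E5386, E5642, E6578 and E6732). Both genotypes carried the SOD1G93A transgene, a mutant human SOD1 that causes motor neuron degeneration, and an inducible Cre at 1 copy of Cx3cr1, and both received tamoxifen, at 12 weeks of age per the labels, while the study's text gives a different age. All 8 mice are labelled as 120 days old, whereas the study's text places the tissue at end-stage. Cre was driven by Cx3cr1, which is active in microglia and in other cells of the myeloid lineage, while the RNA came from whole cord, so a change in any cell type enters each value. No mouse without the SOD1G93A transgene was analysed here.

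Complement is a cascade of plasma and tissue proteins that tags cells and debris for removal. In the classical pathway C1q binds its target and its associated proteases cleave C4 and C2, which together form a C3 convertase; in the alternative pathway factor B takes the place of C2 beside C3 itself. Cleavage of C3 and C5 releases small peptides that signal through C3aR1 and C5aR1 on myeloid cells. In the central nervous system microglia are the main source of C1q, and C3 and C4 are made by reactive astrocytes as well as by microglia.

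The C1qa, C1qb and C1qc genes lie side by side on the minus strand of chromosome 4 (GRCm38, at 136895917 to 136898803, 136880129 to 136886187 and 136889804 to 136893065). RefSeq upstream windows (build GRCm38.p6, the 250 bases before the start) could be matched for 5 of the 9 genes, C1qb, C1qc, C3, C3ar1 and C5ar1, and not for C1qa, C2, C4b and Cfb. The C1qb and C1qc windows are shown because those genes moved together in the data below and because, of the 5, only these hold GAGGAA, the core letters bound by PU.1, the transcription factor that defines the myeloid lineage. Both are written 5′ to 3′ on the strand of the gene, with GAGGAA or its reverse complement in capitals. The C1qb stretch is chr4:136886201-136886450 and the C1qc stretch is the part outside the annotated gene, chr4:136893066-136893164.
C1qb: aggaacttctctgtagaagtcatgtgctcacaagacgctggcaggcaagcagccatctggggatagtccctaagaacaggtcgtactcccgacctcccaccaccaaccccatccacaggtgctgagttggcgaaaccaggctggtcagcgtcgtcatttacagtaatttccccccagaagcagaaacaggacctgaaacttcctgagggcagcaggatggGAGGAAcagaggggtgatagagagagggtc
C1qc: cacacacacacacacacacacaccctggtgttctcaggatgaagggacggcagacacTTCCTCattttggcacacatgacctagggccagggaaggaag
The match begins 30 bases before the RefSeq start in C1qb and 193 bases before it in C1qc. The RefSeq start of C1qc lies 151 bases inside the gene as GENCODE M21 annotates it, and counted from the edge of that annotation its match begins 42 bases upstream. GAGGAA was found, on either strand, in 23.3% of all 32851 mouse windows of this length. The NF-kB letters GGGNNNNNCC were found in 4 of the 5 windows (C1qb, C1qc, C3 and C3ar1) and in 45.8% of all windows. In C1qc those letters lie inside the GENCODE gene. The STAT letters TTCNNNGAA and the interferon-response letters GAAANNGAAA were in 0 of the 5, against 7.02% and 2.98% of all windows. No match overlapped a match to another of these motifs. A match is a description of letters and not of a bound site.

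Total counts per mouse lay between 31148047 and 40324897, and 3 counts, used as the floor of detection, corresponded to 0.0729 to 0.0975 CPM. The floor covers counting error only, whereas standard errors and 95% intervals of fold changes also take in the spread between mice. Markers of the expected cells were present in every library: the 14 microglia markers summed to 1789 to 3010 CPM, the 8 astrocyte markers to 12050 to 17310 CPM and the 8 neuron markers to 3216 to 4348 CPM. Markers of tissues outside the cord were high in 3 controls. The 8 skeletal muscle markers summed to 821 and 1351 CPM in the control mice E5386 and E5642, against 6.57 to 22.9 CPM in the remaining 6. The 8 liver markers summed to 626 CPM in control E6732 and to 1.45 to 2.92 CPM in the other 7, and the 6 adipocyte markers to 132 CPM in E5386 and to 0.940 to 6.73 CPM elsewhere. Ager itself, the targeted gene, lay between 0.889 and 1.51 CPM after deletion and between 1.53 and 2.41 CPM in the controls. The genotypes did not overlap, and the log2 fold change of -0.81 (standard error 0.22) gave 0.252 as the adjusted p of the edgeR exact test. All fold changes below are for Ager-deleted mice over controls.

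None of the 9 complement genes passed the threshold between genotypes. By the edgeR exact test 0 of 9 had an adjusted p under 0.05, beside 14 of 19470 genes tested, or 0.0719%, and 0 of 9 had an unadjusted p under 0.05, beside 4.26% of all genes. With common and tagwise dispersions the exact test called 78 genes, and again 0 of the 9. By quasi-likelihood in edgeR 0 of 9 were called at either level, beside 0.00514% of all genes at the adjusted level and 6.71% at the unadjusted one. The count stayed at 0 without E5386 and E5642, the controls with muscle markers, and without E6732, the control with liver markers. The genotypes overlapped for all 9, whereas they did not for 3.88% of the genes tested. The log2 fold changes ran from -0.74 for Cfb to 0.12 for C4b, 7 below 0 and 2 above, with a median of -0.07 beside 0.01 over all genes tested. The 95% intervals bound the difference, which was between -0.45 and 0.48 for C1qa and between -0.30 and 0.16 for C3ar1, and was much wider for the sparsely counted C2 and Cfb.

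**Figure D1:**
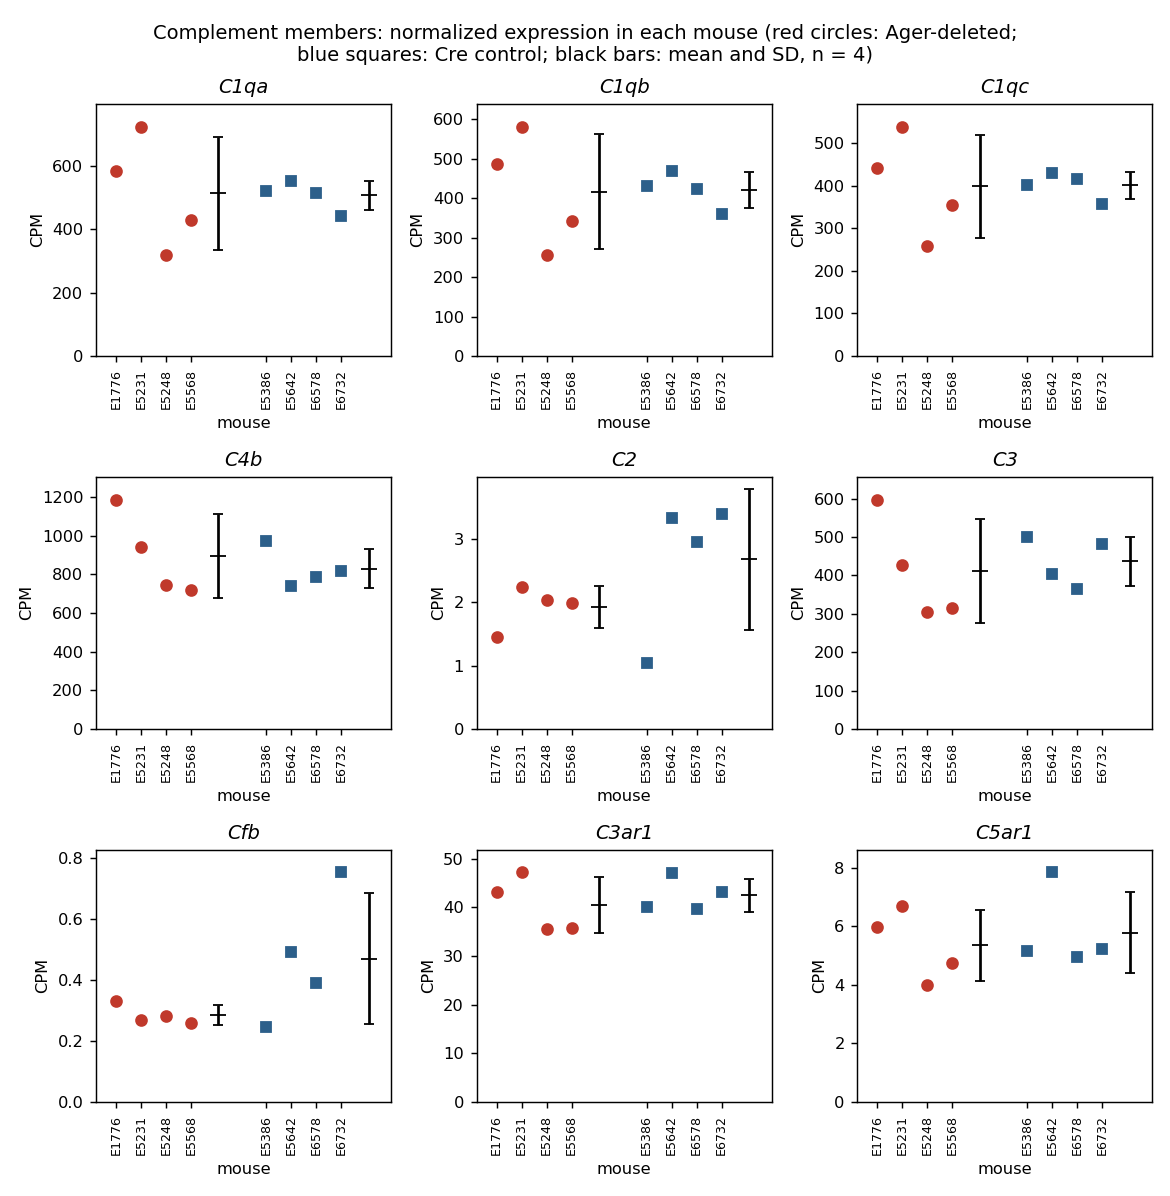
Normalized expression (CPM, linear axis from 0) of each complement gene in the 8 mice, with Ager-deleted mice as red circles, controls as blue squares, and the mean and SD of each genotype in black. The genotypes overlap in every panel; E5231 and E5248 are the highest and lowest mice for the 3 C1q chains, and the control E5386 is the lowest mouse for C2.

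Per kilobase of exon, the order of mean levels over the 8 mice ran from the C1q chains to factor B. C1qa stood at 491 CPM per kilobase, C1qb at 385 and C1qc at 207, followed by C4b at 152 and C3 at 82.5. The receptor genes came next, with C3ar1 at 9.63 and C5ar1 at 2.17 CPM per kilobase. C2, at 0.595, and Cfb, at 0.134, were lowest. C2 is the partner of C4b in the classical convertase, and its 1.04 to 3.40 CPM lay above the floor of detection in all 8 mice.

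C1qa encodes the A chain of C1q, the recognition unit of the classical pathway. It reached 584, 724, 319 and 428 CPM in E1776, E5231, E5248 and E5568 (Ager-deleted), and 520, 551, 516 and 443 CPM in E5386, E5642, E6578 and E6732 (controls). The Ager-deleted mice lay on both sides of the controls, with E5231 and E1776 above all 4 of them and E5248 and E5568 below all 4. The means were 514 ± 178 and 508 ± 46.1 CPM (SD, n = 4), the log2 fold change was 0.02 (standard error 0.21), and the exact two-sided permutation test gave p = 0.943, where 0.0286 is the smallest p possible with 4 mice against 4. In whole tissue, a change in the number of microglia and a change in C1qa RNA per cell cannot be told apart.

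C1qb encodes the B chain and stood at 486, 582, 256 and 343 CPM in the Ager-deleted animals, against 430, 469, 424 and 359 CPM in the control animals. C1qc, the C chain, was measured at 443, 539, 258 and 355 CPM and at 403, 430, 415 and 358 CPM. For both, E5231 and E1776 again lay above every control and E5248 and E5568 below every control. Their log2 fold changes were -0.01 (standard error 0.22) and -0.01 (standard error 0.19), and each turned to just above 0 (0.01 and 0.02) when libraries were scaled by size alone. Exact two-sided permutation tests gave p = 0.8 for C1qb and p = 0.83 for C1qc.

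The sum of the C1q chains was 1513, 1845, 832 and 1126 CPM in the Ager-deleted mice and 1353, 1450, 1354 and 1159 CPM in the controls. The means were equal to 4 digits, 1329 ± 443 and 1329 ± 122 CPM (SD, n = 4; p = 1 by exact two-sided permutation), and the highest and lowest mice of all 8 were both Ager-deleted. The proportions of the chains hardly moved from mouse to mouse. C1qa made up 38.0% to 39.2% of the counts on the 3 genes, C1qb 30.5% to 32.4% and C1qc 29.2% to 31.5%.

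Across the 8 mice the C1q chains varied almost as a single measurement, on the log2(CPM + 1) scale. Pearson's r was 1.00 for C1qa with C1qb (Spearman's rho = 1.00), 0.99 for C1qa with C1qc (rho = 0.98) and 0.99 for C1qb with C1qc (rho = 0.98), and over the 36 pairs of complement genes the adjusted permutation p of r was 0.000893 for each of the 3. Without the 2 mice farthest from the median, E5231 and E5248, r stayed between 0.99 and 1.00. Within each genotype it was between 0.97 and 1.00.

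The C1q chains also varied with the microglia markers and with the astrocyte markers. The mean of the 14 markers, among them the cathepsin gene Ctss, was 6.65, 6.88, 6.19 and 6.35 on the log2(CPM + 1) scale in the Ager-deleted mice and 6.73, 6.65, 6.66 and 6.52 in the controls. It was highest in E5231 and lowest in E5248, as the C1q sum was. Pearson's r with this mean was 0.95 for C1qa (rho = 0.79), 0.95 for C1qb (rho = 0.79) and 0.94 for C1qc (rho = 0.76), with an adjusted permutation p of 0.00624 for each r and of 0.132 for each rho over 18 relations. Without E5248 and E5231, r was 0.82, 0.82 and 0.79. Among the Ager-deleted mice alone r was 0.98 to 0.99, and among the controls alone 0.75 to 0.81. With the mean of the 8 astrocyte markers, r was 0.79 for C1qa (rho = 0.76), 0.83 for C1qb (rho = 0.76) and 0.77 for C1qc (rho = 0.74). The adjusted permutation p of r was 0.0456, 0.0369 and 0.0456 over the same 18 relations, and that of rho was 0.132, 0.132 and 0.137. Without E5248 and E5231 these r were 0.95, 0.95 and 0.92, above those with the microglia markers. Among the controls alone they were 0.93 to 0.97, and among the Ager-deleted mice alone 0.80 to 0.86. The ratio of the C1q sum to the marker mean, as a log2 difference, was 3.80 ± 0.21 in the Ager-deleted mice and 3.73 ± 0.09 in the controls (SD, n = 4; exact two-sided permutation test, p = 0.6). That difference of 0.06 was within the spread between mice. The marker mean was not uniform over its genes: P2ry12 and Gpr34, chosen after their values were seen, were lower in every Ager-deleted mouse than in every control, with log2 fold changes of -0.32 (standard error 0.09) and -0.42 (standard error 0.09) and adjusted p-values of 0.507 and 0.0848 by the edgeR exact test.

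**Figure D2:**
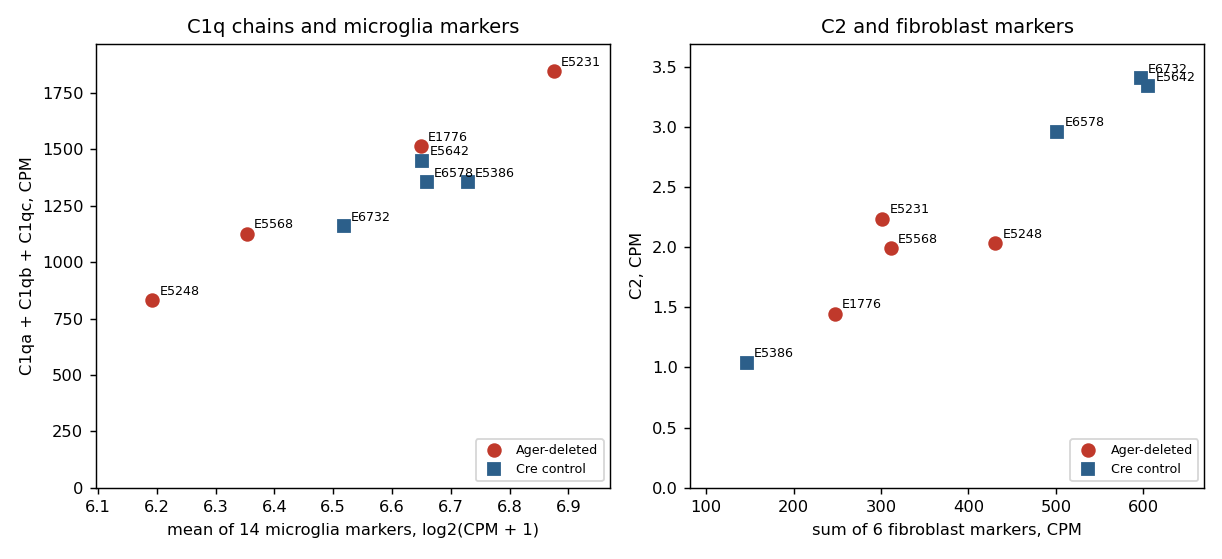
Left, the summed C1q chains (CPM) against the mean of 14 microglia markers (log2(CPM + 1)); right, C2 (CPM) against the summed 6 fibroblast markers (CPM); each point is a mouse, with Ager-deleted mice as red circles and controls as blue squares. The Ager-deleted mice E5231 and E5248 form the ends of the left panel, and the control E5386 is the lowest point of the right panel.

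C4b encodes complement C4, which C1s cleaves to begin the classical C3 convertase. It lies on chromosome 17 at 34728380 to 34743882, minus strand, and stood at 1188, 941, 743 and 718 CPM in the Ager-deleted animals, against 972, 740, 785 and 817 CPM in the control animals. E1776 was the highest mouse and E5568 the lowest, both Ager-deleted, and the controls lay between them. The log2 fold change was 0.12 (standard error 0.16) and the exact two-sided permutation test gave p = 0.686; without E1776 the log2 fold change was -0.05. C4a, a near copy of C4b nearby on the chromosome, was measured at 1.59 to 2.74 CPM. Since 34.6% of the 50-base stretches of C4b transcripts also occur in C4a, and the handling of reads that fit both genes is not given in the sources used here, the split of reads between these copies is uncertain.

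C2 encodes the protease that joins C4 in that convertase. It lies on chromosome 17 at 34862604 to 34898265, minus strand, and stood at 1.45, 2.24, 2.03 and 1.99 CPM in the Ager-deleted animals, against 1.04, 3.34, 2.96 and 3.40 CPM in the control animals, from 38 to 140 counts. The controls E5642, E6578 and E6732 lay above every Ager-deleted mouse, and the control E5386 lay below every one. The log2 fold change was -0.48 (standard error 0.32, 95% interval -1.19 to 0.24), and the exact two-sided permutation test gave p = 0.4. Without E5386 it was -0.76, where the adjusted p was 0.0889 by the edgeR exact test and 0.452 by quasi-likelihood. With E5386 and E5642 both left out it was -0.73, and the edgeR exact test gave 0.44 as the adjusted p.

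C2 moved with fibroblast markers across the mice. The 6 fibroblast markers, led by the proteoglycan gene Dcn, summed to 247, 302, 430 and 311 CPM in the Ager-deleted mice and to 146, 606, 502 and 597 CPM in the controls. All 6 were detected, and all 6 had log2 fold changes below 0. The 3 mice highest in C2 were the 3 highest in this sum, and the lowest and second lowest mice, E5386 and E1776, were the same for both. On the log2(CPM + 1) scale Pearson's r of C2 with the sum was 0.96 (rho = 0.90; adjusted permutation p = 0.00357 for r and 0.041 for rho over the 9 complement genes), and 0.90 without E5386 and E6732. It was 0.60 among the Ager-deleted mice and 1.00 among the controls. This relation was chosen after the values were seen, and the part of fibroblast RNA in the C2 difference was not tested. The C1q chains had r between -0.26 and -0.23 with the same sum. E5386 and E1776 were also the lowest and second lowest mice for Schwann cell markers. These 4 markers summed to 388, 488, 1114 and 800 CPM in the Ager-deleted mice and to 113.5, 1167, 1121 and 900 CPM in the controls. The 9 border and blood myeloid markers also had log2 fold changes below 0. Among them Mrc1, chosen after its values were seen, was lowest in E5386 and E1776, at 4.02 and 5.36 CPM. It was highest in E5642, E6578 and E6732, at 13.3, 13.5 and 13.7 CPM, the 3 mice highest in C2. The sum of the 9 did not follow C2, at 41.7 CPM in E1776 and 185 CPM in E5386. The relation of C2 with the Schwann cell markers or with these myeloid markers was not tested.

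C3 encodes the central component, on which all pathways converge. It lies on chromosome 17 at 57203970 to 57228136, minus strand, far from Ager, and stood at 598, 427, 304 and 317 CPM in the Ager-deleted animals, against 500, 403, 364 and 482 CPM in the control animals. E1776 lay above every control, and E5248 and E5568 lay below every control. The means were 412 ± 136 and 437 ± 64.3 CPM (SD, n = 4), with a log2 fold change of -0.09 (standard error 0.20; p = 0.657 by exact two-sided permutation). Liver, which makes much of the plasma C3, was represented by its markers in control E6732, where C3 was 482 CPM; the part of liver RNA in that value was not tested.

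Cfb encodes factor B, the protease of the alternative pathway. It lies next to C2 on chromosome 17, at 34856374 to 34862518, minus strand, and stood at 0.330, 0.270, 0.282 and 0.259 CPM in the Ager-deleted animals, against 0.246, 0.494, 0.390 and 0.754 CPM in the control animals. These values rest on 9 to 31 counts per mouse. The highest value, 31 counts, came from E6732, the control with liver markers, while E5386 was the lowest mouse of all. The log2 fold change was -0.74 (standard error 0.35, 95% interval -1.51 to 0.03), and the edgeR exact test gave 0.0585 as the unadjusted p and 1 as the adjusted p, where the exact two-sided permutation test gave p = 0.143. Without E6732 the log2 fold change was -0.39, and without E5386 it was -0.97 (adjusted p = 0.487, edgeR exact test). With E5386 and E5642 both left out it was -1.04 (adjusted p = 0.924, edgeR exact test). Liver markers were 8 of 8 above the floor in E6732, and their part in the Cfb value was not tested. Between Cfb and the fibroblast marker sum, r was 0.71 and rho 0.81, neither past the threshold (adjusted permutation p = 0.197 and 0.0981 over the 9 genes), and without E6732 and E5642 r was 0.60. The part of fibroblast RNA in the Cfb value was likewise not tested.

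Counts for C2 and Cfb carry a further limit. In GENCODE M21 the gene model Gm20547 covers both on the same strand, with 79.5% of the exon bases of Cfb and 42.8% of those of C2. The study names a different GENCODE release for its read counts. Gm20547 had 0 counts in all 8 mice. Whether reads that fit more than 1 of these genes were left out is not given in the sources used here, so the levels of C2 and Cfb, per kilobase in particular, are uncertain.

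C4b and C3 varied together from mouse to mouse, with Pearson's r = 0.86 (rho = 0.86; adjusted permutation p = 0.0307 and 0.0385 over 36 pairs). Without the most distant mice, E1776 and E5386, r was 0.64, and within the Ager-deleted mice and the controls it was 0.99 and 0.74. The ratio of C4b to C3 was 1.99, 2.20, 2.44 and 2.27 in the Ager-deleted mice and 1.95, 1.84, 2.16 and 1.70 in the controls. The Ager-deleted mice were the higher ones except that E1776 lay below the control E6578. The means were 2.23 ± 0.188 and 1.91 ± 0.195 (SD, n = 4), and the difference did not pass the exact two-sided permutation test (p = 0.0571).

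C3 and C4b were also set against the 8 astrocyte markers, led by Gfap. The mean of these markers was 9.45, 9.33, 9.09 and 9.11 on the log2(CPM + 1) scale in the Ager-deleted mice and 9.39, 9.39, 9.36 and 9.25 in the controls. Its Pearson's r over all 8 mice was 0.77 for C3 (rho = 0.71; adjusted permutation p = 0.0619 and 0.148) and 0.66 for C4b (rho = 0.52; adjusted permutation p = 0.109 and 0.296). Neither passed the threshold. Without the 2 most distant mice r was 0.53 for C3 and 0.43 for C4b. Among the 4 Ager-deleted mice r was 0.98 for each gene, and among the 4 controls it was -0.35 for C3 and 0.10 for C4b, a contrast that was not tested.

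C3ar1 encodes the receptor for C3a. It lies on chromosome 6 at 122847138 to 122856161, minus strand, and stood at 43.3, 47.2, 35.5 and 35.8 CPM in the Ager-deleted animals, against 40.1, 47.0, 39.7 and 43.2 CPM in the control animals. The highest mouse, E5231, and the lowest, E5248, were both Ager-deleted. The log2 fold change was -0.07, and its standard error of 0.10 was the smallest among the 9 genes (exact two-sided permutation test, p = 0.514).

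C5ar1 encodes the receptor for C5a. It lies on chromosome 7 at 16246743 to 16259540, minus strand, and stood at 5.97, 6.69, 3.98 and 4.76 CPM in the Ager-deleted animals, against 5.14, 7.84, 4.94 and 5.23 CPM in the control animals. The control E5642 stood above all other mice, and the Ager-deleted mice spread on both sides of the other 3 controls. The log2 fold change was -0.11 (standard error 0.20; p = 0.629 by exact two-sided permutation), and without E5642 it was 0.06.

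The receptor genes varied together, with Pearson's r = 0.91 (rho = 0.98; adjusted permutation p = 0.00893 and 0.00357 over 36 pairs), and r was 0.90 without E5248 and E5568. The r of 0.87 without E5248, and of 0.92 without E5386 and E5642, no longer passed adjustment. With the C1q chains, r was 0.79 to 0.83 for C3ar1 and 0.78 to 0.82 for C5ar1. The adjusted permutation p of these 6 values of r lay between 0.0577 and 0.0792, and that of the rank correlation between 0.0274 and 0.0462. Without E5231 and E5248, r was between 0.56 and 0.66. With E5642 left out, the 3 r of C5ar1 were 0.94 to 0.95 and passed adjustment, as did those of C3ar1, at 0.84 to 0.89, with E6732 left out. These r were unequal between the genotypes: among the 4 Ager-deleted mice r was 0.92 to 0.95 for C3ar1 and 0.99 to 1.00 for C5ar1, and among the 4 controls 0.13 to 0.26 for C3ar1 and 0.52 to 0.63 for C5ar1. That difference was not tested. With the microglia markers C3ar1 had r = 0.79 (rho = 0.64; adjusted permutation p = 0.0494 and 0.192 over 18 relations), but 0.30 without E5248 and E5568 and -0.35 among the controls, so the relation rests on the Ager-deleted mice (r = 0.98). Of all 36 pairs, 27 had r above 0, 5 passed the threshold by r and 12 by rho.

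**Figure D3:**
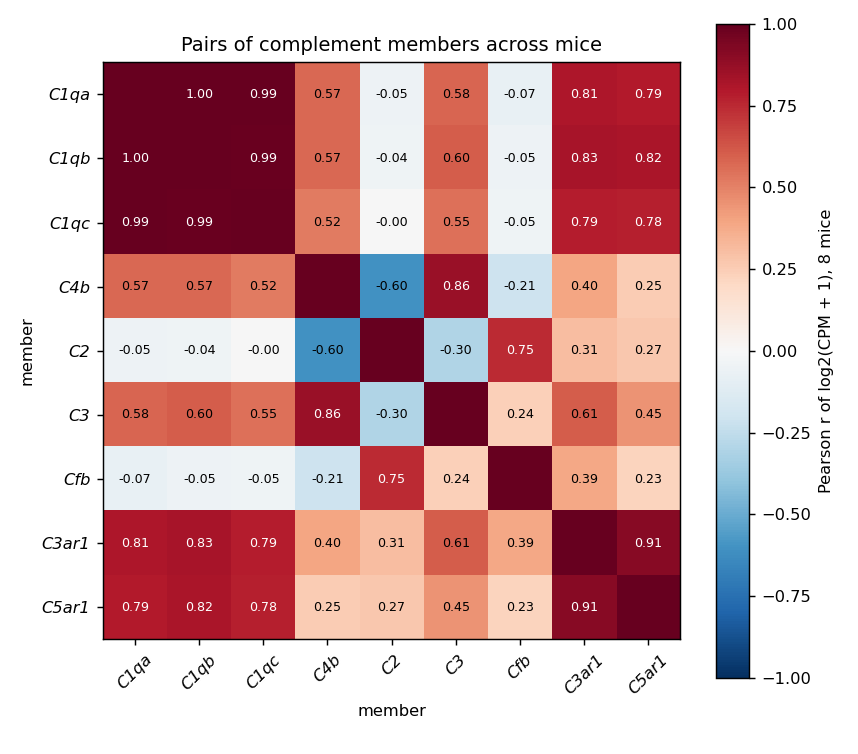
Pearson's r of log2(CPM + 1) over the 8 mice for each pair of complement genes, from -1 (blue) to 1 (red). The C1q chains and the receptors form a block of r from 0.78 to 1.00, C4b and C3 share r = 0.86, and C2 pairs most closely with Cfb (r = 0.75).

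C2 and Cfb had r near 0 with the C1q chains. Their r with each other was 0.75 (rho = 0.83; adjusted permutation p = 0.0837 and 0.0462 over 36 pairs), and 0.72 without E5386 and E6732. With the 3 C1q chains r was between -0.05 and -0.0026 for C2 and between -0.07 and -0.05 for Cfb. C2 had r = -0.60 with C4b, its convertase partner (rho = -0.38; adjusted permutation p = 0.271 and 0.589), and with the receptor genes r was 0.27 to 0.31 for C2 and 0.23 to 0.39 for Cfb, none past the threshold. Within the Ager-deleted mice, where Cfb ran from 10 to 13 counts, r of C2 with Cfb was -0.90, so the positive relation rests on the controls (r = 0.80).

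Genes with a pattern most like the members were sought among the 12713 other tested genes with a mean of at least 5 CPM, by Pearson's r of log2(CPM + 1) over the 8 mice. Closest to the C1q sum were Gusb, the lysosomal beta-glucuronidase (r = 0.99), the cathepsin genes Ctsb (r = 0.99) and Ctsl (r = 0.99), Ptk2b, a tyrosine kinase (r = 0.99), and Lgmn, the asparaginyl endopeptidase legumain (r = 0.99). Closest to C3 were Slc4a5, a bicarbonate transporter (r = 0.97), the talin gene Tln1 (r = 0.96), Cybrd1, a ferric reductase (r = 0.96), Srebf1, a regulator of lipid synthesis (r = 0.96), and Tcirg1, a proton pump subunit (r = 0.95). Closest to C4b were Bmp1, a procollagen protease (r = 0.98), Tep1, a telomerase-associated protein (r = 0.98), Atp6v0a2, another proton pump subunit (r = 0.97), the transcription factor gene Nfix (r = 0.97) and the formin gene Inf2 (r = 0.97). These are the highest values out of many over the same 8 mice, and are given as a description.

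C2, C4b and Cfb lie near Ager, which starts at 34597862 on chromosome 17. Their starts are 300.4 kb, 146 kb and 264.7 kb away. Of the 32 annotated genes from Ager to C2, 19 were tested, and 0 were called by either edgeR test. Their log2 fold changes were below 0 for 8 and above 0 for 11, with a median of 0.03. Only Ager did not overlap between genotypes. Genes between Ager and the complement genes, such as Rnf5 and Agpat1 within 6.4 kb of the Ager start, had log2 fold changes of 0.13 and 0.09, while Egfl8, 18.1 kb from it, had -0.65 (standard error 0.26), with the genotypes overlapping. All 3 were chosen after their values were seen, and all had adjusted p-values of 1 by the edgeR exact test.

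**Figure D4:**
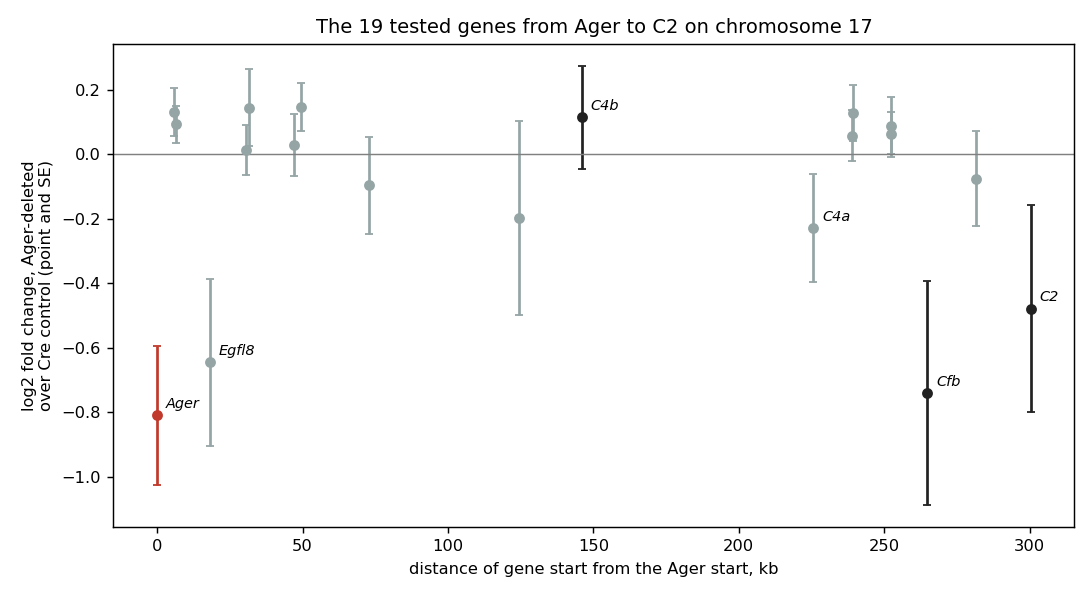
Log2 fold change (Ager-deleted over control, with its standard error) of the 19 tested genes from Ager to C2 against the distance of each gene's start from the Ager start in kb, with Ager in red, complement members in black and other genes in grey. Cfb (-0.74) and C2 (-0.48) lie below 0 at the far end, C4b (0.12) lies above 0, and Egfl8 (-0.65) is the lowest of the other genes between C2 and Ager.

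Another 53 genes of the complement system, listed by role, were compared in the same way. Of these, 40 were tested and 0 were called by either edgeR test; 5 had an unadjusted p under 0.05 by the exact test, where 4.26% of all genes did, and 5 by quasi-likelihood, where 6.71% did. The genotypes overlapped for all 40. Log2 fold changes were above 0 for 16 and below 0 for 24, with a median of -0.04.

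Among the initiating genes, 11 of 14 were tested, 3 above and 8 below 0. The most abundant were Masp1, a protease of the lectin pathway, at 30.9 ± 3.28 and 28.3 ± 5.59 CPM (SD, n = 4) in Ager-deleted and control mice, and Colec12, a scavenger collectin, at 27.1 ± 3.99 and 29.6 ± 6.08 CPM. C1ra and C1s1, the proteases that C1q activates, were measured at 5.45 to 11.2 CPM and 3.56 to 10.9 CPM over the 8 mice, far below the C1q chains.

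Of the alternative pathway genes, Cfp, encoding properdin, was measured at 8.88 ± 1.66 and 8.47 ± 0.985 CPM (SD, n = 4). Cfd, encoding factor D (adipsin), stood at 0.0254, 1.27, 0.480 and 0.465 CPM in the Ager-deleted animals, against 9.63, 0.247, 0.260 and 0.559 CPM in the control animals. Its highest value was in E5386, the control with adipocyte markers, and the other 3 controls lay within the range of the Ager-deleted mice. The part of adipose RNA in Cfd was not tested.

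Of the 7 terminal genes, 3 were tested. C8g was measured at 2.94 ± 0.311 and 2.91 ± 0.382 CPM (SD, n = 4). Hc, encoding C5, stood at 0.838, 1.08, 0.649 and 0.698 CPM in the Ager-deleted animals, against 1.01, 1.02, 0.520 and 6.59 CPM in the control animals. C9, chosen after its values were seen, had 100 counts in E6732 and 0 in the other 7 mice. Hc and C9 were both highest in the control with liver markers, whose part in them was not tested. C6, C8a and C8b, also below the filter, had their highest values, 1.12, 4.13 and 1.95 CPM, in that mouse too.

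Of the 20 regulators, 15 were tested, 6 above and 9 below 0. Clu, encoding clusterin, an inhibitor of the terminal complex, was the most abundant at 2317 ± 483 and 2319 ± 192 CPM (SD, n = 4), with a log2 fold change of -0.0014, and Susd4 followed at 97.9 ± 7.78 and 88.9 ± 4.03 CPM. Among the genes with an unadjusted p under 0.05 in the exact test, named here for that reason after their values were seen, were Cfi and Cd46 of the regulators and Hc and C7 of the terminal genes. Their log2 fold changes were -2.58 for Cfi, -1.51 for Hc, -1.04 for C7 and -0.37 for Cd46. None passed adjustment, with adjusted p-values by the edgeR exact test of 0.642 for Cfi, 0.915 for C7 and 1 for Hc and Cd46.

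Cfi, encoding factor I, was measured at 3.96 CPM in E6732 and at 0.109 to 0.455 CPM in the other 7 mice.

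Of the 10 other receptor and uptake genes, 9 were tested, 5 above and 4 below 0. Lrp1, a phagocytic receptor, was measured at 1085 ± 236 and 1051 ± 40.0 CPM (SD, n = 4), and Calr, encoding calreticulin, at 379 ± 40.7 and 328 ± 23.6 CPM. Of the complement receptor 3 subunits, Itgam was measured at 28.6 ± 6.49 CPM in the Ager-deleted animals and 28.4 ± 3.80 CPM in the controls (SD, n = 4), and Itgb2 at 59.4 to 97.8 CPM over the 8 mice. The gene model Gm49368 shares 68.7% of the exon bases of Itgam on the same strand, so the level of Itgam is uncertain as those of C2 and Cfb are. C5ar2, the second C5a receptor, was measured at 2.39 ± 0.301 and 2.90 ± 0.448 CPM, with a log2 fold change of -0.28 (standard error 0.16; adjusted p = 1, edgeR exact test).

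**Figure D5:**
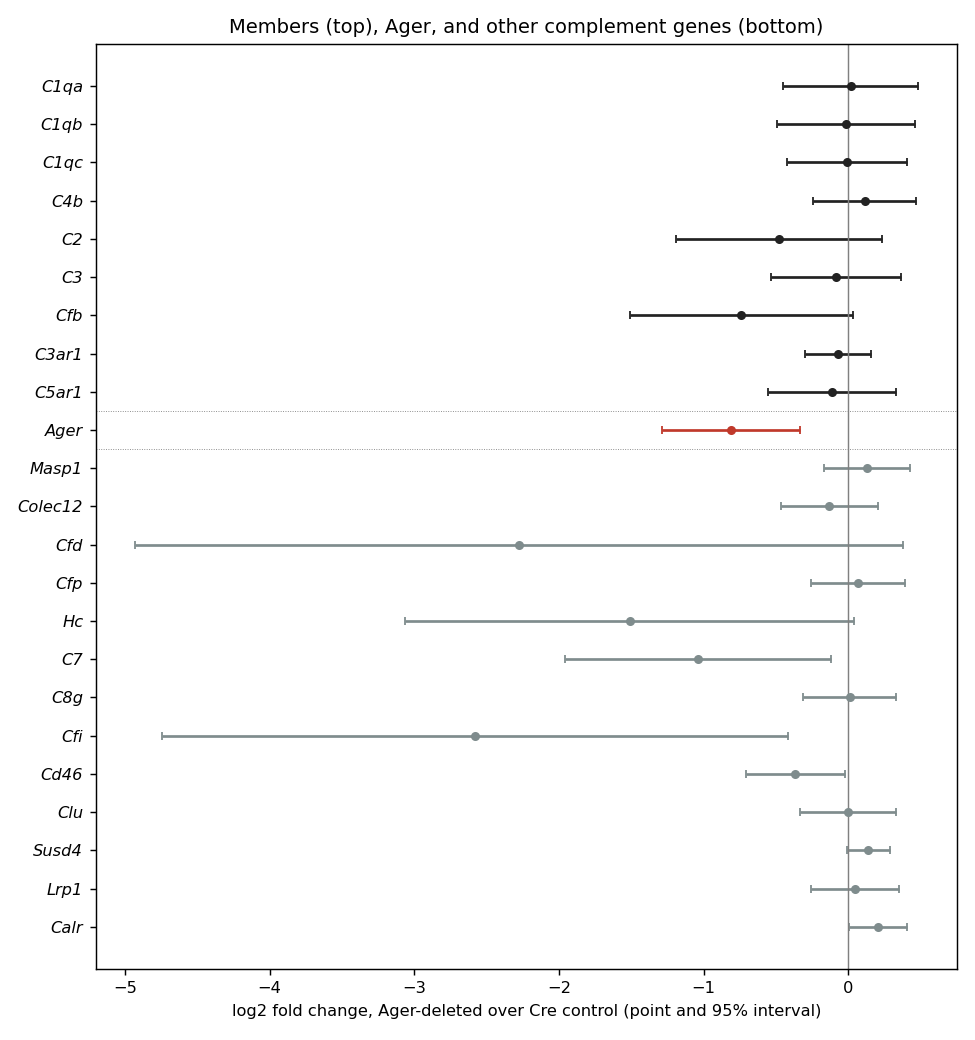
Log2 fold change, Ager-deleted over control, with 95% interval from the quasi-likelihood fit, for the 9 members (black), Ager (red) and 13 other complement genes named in the text (grey). The intervals of all 9 members include 0; the widest intervals belong to Cfd and Cfi, each with its highest value in a single control.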

How the data were processed

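RNA of lumbar cord from 8 mice was sequenced as stranded polyA libraries. Per the study's methods and the submitters' processing notes, the authors trimmed reads (Trimmomatic 0.36), aligned them to mm10 (STAR 2.7.3a) and counted read pairs per gene (featureCounts in Subread 1.6.3). They deposited raw counts per gene, used here for every test, and log2 TMM-normalized CPM (edgeR 3.26.8), used only to check the filter and scaling: the same 19470 genes, within 4.78e-06. The strand setting and the handling of multi-mapping reads are not given in the sources used here. Samples were grouped by the genotype in their titles. Each is a separate mouse.

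Counts were filtered (filterByExpr, minimum 10 counts), TMM-normalized and passed to edgeR 4.0.16 (R 4.3.3) for the exact test, the study's test, and for glmQLFTest, which gave fold changes, standard errors and intervals. The p-values were adjusted over all 19470 genes (Benjamini-Hochberg, threshold 0.05). Values per mouse are CPM, compared on log2(CPM + 1) by exact permutation over 70 assignments. Correlations over mice used all 40320 pairings, adjusted within families of 36, 18 and 9. Alternatives were other normalizations, filters and dispersions, DESeq2 1.42.0, limma-voom (limma 3.58.1), a pseudocount of 0.1 CPM, and leaving out mice. The tests were also run on simulated counts, and no result given here rests on that run. Positions and lengths are from GENCODE M21, matched by symbol, while the study names a different release for its read counts.

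The members, gene lists and tests were chosen with earlier results of these data known. Genes named are the members, Ager, the 2 most abundant complement genes of each role, the 5 genes most like C1q, C3 and C4b, the most abundant gene of marker lists, and any called or non-overlapping gene among the other complement genes or from C2 to Ager; others are said to be chosen after their values were seen. C1ra, C1s1, Itgam, Itgb2, C5ar2, C4a, C6, C8a, C8b, Egfl8, P2ry12, Gpr34, Gm20547 and Gm49368 were also named after their values were seen.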

Additional observations from a re-analysis of the deposited data

Results flagged for a closer look

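On the log2(CPM + 1) scale, 18 groups of 4 mice (the 9 genes in each genotype) were tested for a single distant value. Of these, 2 had one, and chance alone gives about 1 in 20. In the controls, C2 was lowest in E5386, at 1.04 CPM. On the log2(CPM + 1) scale the gap to the next control took 0.861 of the range of the 4 controls. E5386 also had the lowest fibroblast marker sum, at 146 CPM. C5ar1 was highest among the controls in E5642, at 7.84 CPM, with a gap of 0.881 of the range on the log2(CPM + 1) scale. On that scale both gaps are above the 95% critical value of Dixon's test, whereas on linear CPM the gap of C2 is not.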

How the results depend on the processing

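The count of complement genes called stayed at 0 under every alternative and with each mouse left out, out of 9 tested except with at least 1 CPM in 4 mice, where Cfb was filtered out and 8 were tested. Over all genes the exact test's count of 14 became 78 with common and tagwise dispersions, 25 in DESeq2, 8 with at least 1 CPM in 4 mice, 1 in limma-voom, 67 without E5386 and E5642, and 3 to 98 with each mouse left out; the quasi-likelihood count was 1 to 2. Log2 fold changes near 0 changed sign: C1qa in limma-voom (-0.049), C1qb and C1qc by library size alone (0.014 and 0.017), and C1qb, C1qc and C5ar1 without E5386 and E5642 (0.084, 0.039 and 0.066). With each mouse left out they ran from -0.19 to 0.19 for C1qa, -0.22 to 0.16 for C1qb, -0.19 to 0.15 for C1qc, -0.050 to 0.21 for C4b, -0.32 to 0.033 for C3, -0.24 to 0.060 for C5ar1, -0.76 to -0.34 for C2, -0.97 to -0.39 for Cfb and -0.15 to -0.013 for C3ar1. The cause was not tested. The relation of C2 with C5ar1 became r = -0.12 without E5386 and E5642. With each mouse left out, r of C2 ran from -0.16 to 0.063 with C1qa, -0.16 to 0.081 with C1qb, -0.11 to 0.099 with C1qc and -0.072 to 0.37 with C5ar1, and r of Cfb from -0.37 to 0.18, -0.34 to 0.24 and -0.38 to 0.20 with the C1q chains. The r of C4b with C3 ran from 0.76 to 0.93 and lost its adjusted call in 5 of 8 such fits, and that of C3ar1 with C5ar1 lost it in 1 (0.87 without E5248). No paired analysis was possible because the labels give mouse IDs and no replicate numbers shared between genotypes. Depth limits C2 and Cfb, at 9 to 140 counts per mouse.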
